A study of Mus musculus with 6 samples.

Results

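For serine, glycine and one-carbon metabolism, 10 genes were looked up by name in 4 lists of ATF4 ChIP-seq peaks, namely Phgdh, Psat1, Psph, Shmt1, Shmt2, Mthfd1, Mthfd1l, Mthfd2, Mthfd2l and Aldh1l2. A peak belonged to an enzyme when the list gave that enzyme as the gene with the nearest transcription start site (TSS), at any distance. Of the 10 genes, 6 had at least 1 peak, and they took 26 of the 17462 peaks, whereas Psph, Shmt1, Mthfd1 and Mthfd2l had none in any list. The libraries came from primary mouse embryonic fibroblasts (MEFs) of the strain 129S6/SvEvTac, either wild type (WT) or GCN2-/- (GCN2 KO), kept for 24 h in complete DMEM (+Leu) or in DMEM that lacked leucine (-Leu), and ATF4 was precipitated with the antibody sc-200. Each of the 4 conditions had 1 library, for which chromatin of 2 experiments with 5 or more replicates apiece had been pooled, and without replicate libraries no test between conditions was made. The peak lists hold no expression values, so neither the cell type nor the loss of GCN2 could be checked in them. The file headers name the +Leu input of the same genotype as the control of the -Leu lists as well, and the 2 input libraries were not analysed here.

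Serine is made from an intermediate of glycolysis in consecutive steps catalysed by Phgdh, Psat1 and Psph. Serine hydroxymethyltransferases then convert serine to glycine and pass a carbon unit to tetrahydrofolate. Mthfd and Aldh1l enzymes oxidise this unit. In mitochondria Mthfd enzymes also release it as formate, and in the cytosol it serves nucleotide synthesis. ATF4 is a leucine zipper transcription factor whose translation increases when the kinase GCN2 senses uncharged tRNA, and it binds composite sites related to TGATGCAA together with C/EBP proteins.

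The bases at the center of the WT -Leu peak of each bound enzyme are shown because the positions of the peaks and of the ATF4 motif are compared in what follows. They were read from the GRCm38 (mm10) RefSeq reference on the strand of the gene, 5′ to 3′, from 40 bp before to 40 bp after the peak center. Capitals mark TGATGNAA, where N is any base, in either orientation (TTNCATCA when it points against the gene). In Psat1, which has no such match, capitals mark the closest site. The coordinates are chr3:98339173-98339253 (minus strand) for Phgdh, chr19:15925127-15925207 (minus) for Psat1, chr10:127521894-127521974 (minus) for Shmt2, chr6:83317124-83317204 (minus) for Mthfd2, chr10:3973715-3973795 (plus) for Mthfd1l and chr10:83533338-83533418 (minus) for Aldh1l2.
Phgdh: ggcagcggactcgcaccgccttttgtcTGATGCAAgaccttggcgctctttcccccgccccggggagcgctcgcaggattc
Psat1: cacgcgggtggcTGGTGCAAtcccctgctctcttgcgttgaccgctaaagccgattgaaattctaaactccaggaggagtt
Shmt2: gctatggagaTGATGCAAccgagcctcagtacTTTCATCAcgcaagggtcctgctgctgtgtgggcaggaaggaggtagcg
Mthfd2: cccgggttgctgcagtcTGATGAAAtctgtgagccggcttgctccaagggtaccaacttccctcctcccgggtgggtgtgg
Mthfd1l: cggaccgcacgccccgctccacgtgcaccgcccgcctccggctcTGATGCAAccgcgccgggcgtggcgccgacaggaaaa
Aldh1l2: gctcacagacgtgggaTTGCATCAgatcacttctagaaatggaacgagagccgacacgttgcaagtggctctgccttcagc

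A peak lay within 5 kb of the TSS for 6 of the 10 enzymes with leucine in WT cells and for the same 6 without it, against 3 (+Leu) and 2 (-Leu) in GCN2 KO cells. Among all 21883 protein-coding genes the share with such a peak was 3.03% (+Leu) and 4.40% (-Leu) in WT cells, and 2.27% (+Leu) and 1.61% (-Leu) in GCN2 KO cells. In GCN2 KO cells these were Psat1, Shmt2 and Mthfd2 with leucine, and Psat1 and Mthfd2 without it. Where 4 values follow each other here, they give WT cells with and then without leucine, followed by GCN2 KO cells in the same way. Within 5 kb lay 6, 7, 3 and 2 member peaks, and the other 8 lay farther away. Every peak has a score given by the authors as a whole number, with a lowest value of 13 in each list and medians of 30, 30, 29 and 30. The scale of the score is not given in the sources used here, and scores were not normalized between libraries, whose depth the lists do not hold. Ranks count from the highest score of a list, which held 4850, 6374, 3566 and 2672 peaks.

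**Figure D1:**
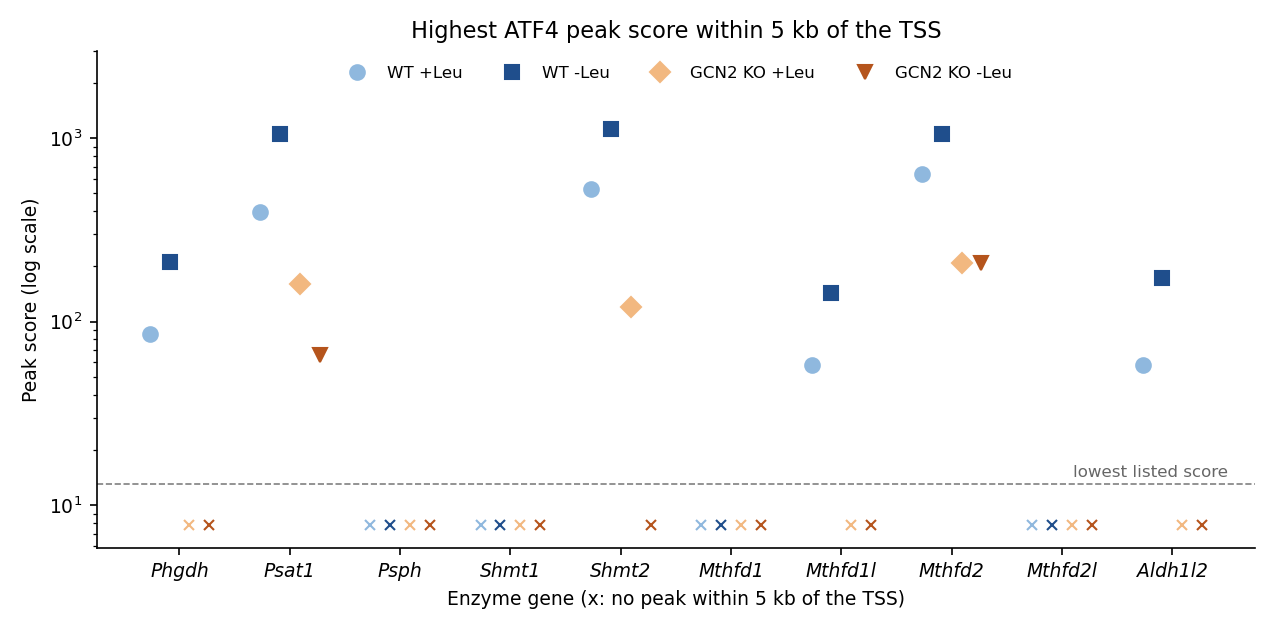
Highest peak score within 5 kb of the TSS (log scale) for each of the 10 enzyme genes in the 4 lists, 1 point per list, with a cross below the dashed line where a list has no such peak. Psat1, Shmt2 and Mthfd2 stand above the other enzymes in both WT lists, and no other enzyme has a point in the GCN2 KO lists. Psph, Shmt1, Mthfd1 and Mthfd2l show only crosses.

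Phgdh (Entrez Gene 236539), which oxidises the glycolytic precursor in the first step of serine synthesis, had a peak in the WT lists alone. It scored 86 in WT +Leu (rank 112) and 212 in WT -Leu (rank 289). The WT -Leu window spanned chr3:98339063-98339363, centered 756 bp downstream of the TSS in intron 1 of 11, and the center in WT +Leu was 6 bp away. Both windows were annotated as CpG island and had GC contents of 71.4% (WT +Leu) and 70.8% (WT -Leu). Neither GCN2 KO list assigned a peak to Phgdh at any distance.

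Psat1 (Entrez Gene 107272), the aminotransferase of the next step, was bound in all 4 lists, and it was the only enzyme whose strongest peak lay upstream of the TSS. In WT cells it scored 398 with leucine (rank 13) and 1050 without (rank 25), and in GCN2 KO cells 161 with leucine (rank 13) and 66 without (rank 33). The GCN2 KO -Leu score was the lowest of the 4 and was shared by 5 peaks of that list. All of these peaks were annotated as promoter, with centers at -151, -108, -131 and -129 bp in the same order, a spread of 43 bp. The WT -Leu window spanned chr19:15925017-15925317. Psph (Entrez Gene 100678), the phosphatase that releases serine, had no assigned peak, and the nearest peaks of any gene were 224311, 213072, 227758 and 74899 bp from its TSS.

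The mitochondrial and cytosolic serine hydroxymethyltransferases differed in the lists. Shmt2 (Entrez Gene 108037), the mitochondrial form, scored 530 with leucine (rank 8) and 1121 without it (rank 19) in WT cells, and 120 in GCN2 KO +Leu (rank 24). It had no peak in GCN2 KO -Leu, where the nearest listed peak was 336630 bp away. The peaks lay in intron 1 of 11 at 494, 510 and 498 bp, where the window of starved WT cells spanned chr10:127521784-127522084. Shmt1 (Entrez Gene 20425), the cytosolic form, had no assigned peak, and no peak of any list was closer to its TSS than 102900 bp.

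Mthfd2 (Entrez Gene 17768), a mitochondrial methylene-tetrahydrofolate dehydrogenase and cyclohydrolase, had the highest score of the 10 enzymes in WT +Leu and in both GCN2 KO lists. The WT scores were 635 with leucine (rank 7) and 1058 without it (rank 24), and the GCN2 KO scores were 209 (rank 9) and 208 (rank 4). The GCN2 KO scores were nearly equal, and both were below either WT score. All of its peaks within 5 kb lay in intron 1 of 7, at 444, 440, 446 and 433 bp from the TSS, so the centers of the 4 lists fell within 13 bp. The WT -Leu window spanned chr6:83317014-83317314. Mthfd2l (Entrez Gene 665563), its paralog in the same compartment, had no assigned peak. The nearest was an intergenic WT -Leu peak 46095 bp from the TSS, assigned to Cxcl1 with a score of 119.

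Mthfd1l (Entrez Gene 270685), the mitochondrial enzyme that releases formate from formyl-tetrahydrofolate, scored 58 in WT +Leu (rank 213) and 144 in WT -Leu (rank 433). These peaks lay in a CpG island in intron 1 of 27, at 668 and 680 bp, and the WT -Leu window spanned chr10:3973605-3973905. Aldh1l2 (Entrez Gene 216188), the mitochondrial formyl-tetrahydrofolate dehydrogenase, scored 58 in WT +Leu, the same rank as Mthfd1l, and 173 in WT -Leu (rank 353). Its peaks lay in intron 1 of 22 at 803 and 762 bp, with the WT -Leu window at chr10:83533228-83533528. A second Aldh1l2 peak, in the same intron at 3463 bp, was listed in WT -Leu alone with a score of 66 (rank 921). Neither gene had a GCN2 KO peak within 5 kb. Mthfd1 (Entrez Gene 108156), the cytosolic enzyme that joins several folate steps in 1 protein, had no assigned peak, and the nearest peak of any list was a WT -Leu peak 24446 bp from its TSS, assigned to Tex21 with a score of 23.

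**Figure D2:**
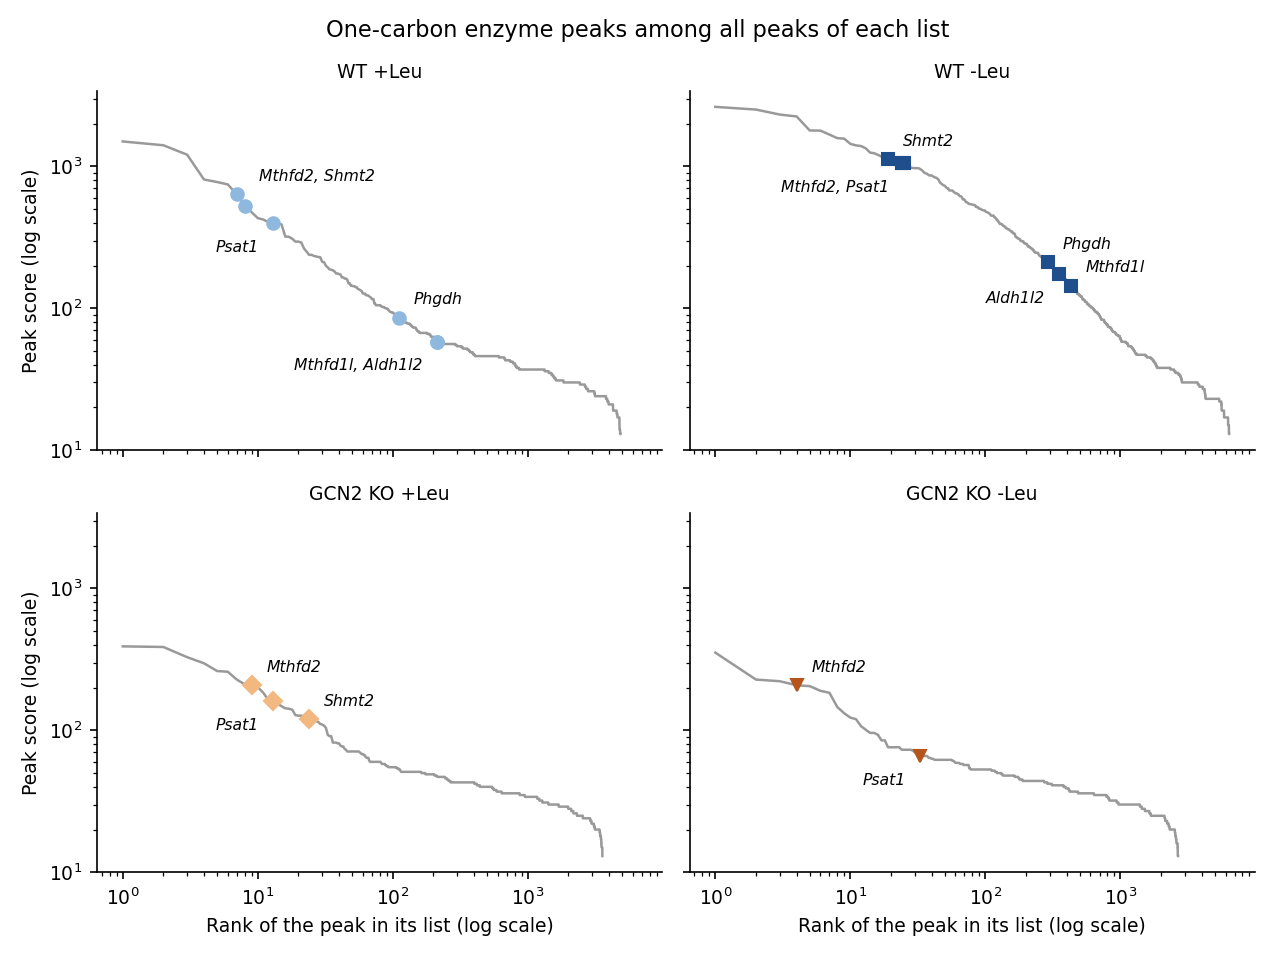
Score against rank for all peaks of each list (grey line, both axes logarithmic), and the strongest peak of each enzyme, within 5 kb of its TSS, marked. Psat1, Shmt2 and Mthfd2 lie at ranks 4 to 33 wherever they have a peak, and Phgdh, Mthfd1l and Aldh1l2 at ranks 112 to 433 in the WT lists.

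Most of the bound enzymes had their strongest peak at a similar position. For 5 of the 6 the strongest peak lay in intron 1, between 433 and 803 bp downstream of the TSS, and Psat1 was the exception. Of all peaks within 5 kb of a TSS, 24.9% lay in an intron 1 in WT +Leu (95% Wilson interval 22.1 to 28) and 27.2% in WT -Leu (24.7 to 29.8), and 19.2% and 20.5% lay within 1 kb downstream of the TSS. Among all peaks within 1 kb of a TSS, 28.3% lay in an intron 1 in WT +Leu (23.1 to 34.2) and 24.6% in WT -Leu (20.8 to 28.9). These intervals cover counting error only. The shares count every peak, and none was computed for the strongest peak of each gene. At the strongest peaks of the enzymes, the centers of a gene were at most 43 bp apart between the lists. Of the 18 member peaks within 5 kb, 17 had a peak of another list with its center 300 bp or less away, and the second Aldh1l2 peak had none. The 17 lay at 6 sites, 1 per gene, each counted once for every list that held it. Among all peaks within 5 kb, the share with such a partner was 14.9%, 11.0%, 12.4% and 11.0% in the 4 lists. That share was not matched for score, and the 17 peaks scored from 58 to 1121, above the list medians of 29 and 30. The WT +Leu peaks of the enzymes within 1 kb had GC contents from 50.2% for Aldh1l2 to 71.4% for Phgdh, around the median of 56.8% for all 251 peaks that close to a TSS.

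**Figure D3:**
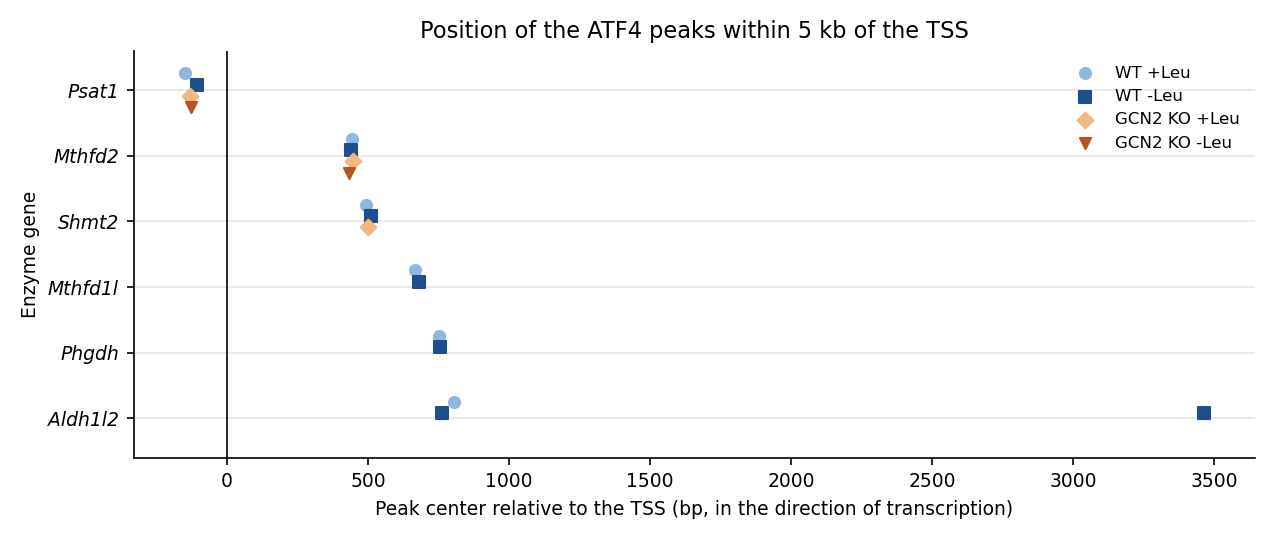
Distance of each peak center from the TSS in bp, positive in the direction of transcription, for the 18 peaks within 5 kb of the 6 bound enzymes, with 1 symbol per list. The symbols of 1 gene lie nearly on top of each other, of these genes Psat1 alone lies left of the TSS, and 1 Aldh1l2 peak of WT -Leu stands apart at 3463 bp.

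The ATF4 motif was searched for as TGATGNAA on both strands, which includes TGATGCAA and TGATGAAA. Mthfd1l and Phgdh held TGATGCAA in the direction of the gene, and Aldh1l2 held it in the opposite direction. Mthfd2 held TGATGAAA in the direction of the gene. Shmt2 held a pair, TGATGCAA along the gene and TGATGAAA against it, whose starts lie 22 bp apart. These sites are the capitals in the sequences printed above. In all 5 genes they lay in intron 1, beginning 242 bases past the end of exon 1 in Mthfd2, 281 in Mthfd1l, 324 and 346 in Shmt2, 469 in Phgdh and 565 in Aldh1l2. At least 2 matches within 50 bp of the center were found in 0.74% of all WT +Leu peaks within 5 kb and in 0.767% of those of WT -Leu. Among peaks within 1 kb of a TSS, where the Shmt2 peaks lie, the shares were 1.99% and 1.38%.

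The motif lay close to the peak centers. TGATGNAA was wholly within 50 bp of the center in 4 of 6, 5 of 7, 2 of 3 and 1 of 2 member peaks within 5 kb. The share among all peaks within 5 kb was 9.74% (95% Wilson interval 7.89 to 12), 15.3% (13.4 to 17.5), 5.42% (3.87 to 7.56) and 4.69% (3.06 to 7.14). Among the peaks within 1 kb of a TSS, where the strongest member peaks lie, it was 20.3%, 21.6%, 12.8% and 7.03%. These shares were not matched for score. The same sites recur between the lists, so the member counts of the 4 lists are not independent. For Aldh1l2 the list decided the count, since the same TGATGCAA had its middle 20.5 bp from the WT -Leu center and 61.5 bp from the WT +Leu center. The weaker Aldh1l2 peak also held TGATGCAA, with its middle 87.5 bp from the center. Peaks with the motif had higher median scores than those without it. In WT +Leu, the median score of peaks within 5 kb was 86 with TGATGNAA within 50 bp and 29 without it, and in WT -Leu it was 148.5 and 30.

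Psat1 had no TGATGNAA within 1 kb of its TSS. A search that allowed 1 mismatch to TGATGCAA outside position 6, added after this was seen, found TGGTGCAA in the direction of the gene at chr19:15925188-15925195, which differs from TGATGCAA by A3G, with positions counted from 1 at the 5′ end of the motif. Its middle was 18.5, 24.5, 1.5 and 3.5 bp from the centers of the 4 lists. TGGTGCAA itself was within 50 bp of the center in 0.74% of all WT +Leu peaks within 5 kb and in 1.19% of those of WT -Leu, and any such 1-mismatch site in 6.29% and 10.4%. The letters TGGTGCAA were read from the Psat1 peak, so how rare they are tests nothing. Among peaks within 1 kb of a TSS, any such site was found in 8.37% (WT +Leu) and 12.4% (WT -Leu). The second Aldh1l2 peak (TGATGCCA) and the distal Mthfd1l peak of GCN2 KO +Leu (TGATGCAG) also held a 1-mismatch site. Over all 10 enzymes, TGATGNAA occurred within 1 kb of the TSS in Phgdh, Shmt2, Mthfd1l, Mthfd2 and Aldh1l2 and in none of Psat1, Psph, Shmt1, Mthfd1 and Mthfd2l. The 5 genes that held it all had a peak, and of the 5 without it Psat1 had one. Among 20996 protein-coding genes TGATGNAA occurred within 1 kb of the TSS in 4542 (21.6%). By the limit of 5 kb, the WT -Leu list placed a peak at only 963 of 21883. Most genes with the motif therefore lacked such a peak in that list, so the motif alone did not mark bound genes. The exact share of motif-holding genes with a peak was not computed. In the RefSeq promoter sequences, which run from 250 bp before to 50 bp after a start, 9 of the 10 enzymes were matched with 10 promoters. Of these, 0 held TGATGNAA, against 3.97% of all 32851 promoters. In the enzymes with TGATGNAA within 1 kb, the matches began 417 to 743 bp downstream of the TSS, outside such a stretch. The promoter count therefore adds little to the search above. At so low a share, 10 promoters are also too few to show a lack of the motif.

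**Figure D4:**
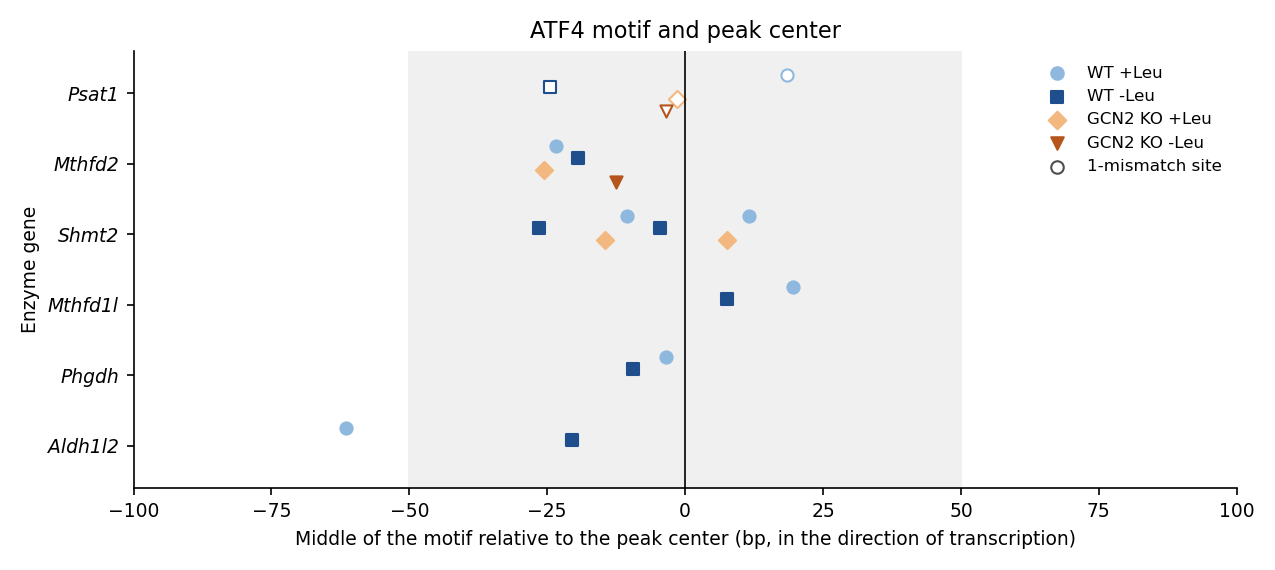
Distance in bp from the peak center to the middle of the motif, positive in the direction of transcription, for the peaks within 1 kb of the TSS, with filled symbols for TGATGNAA, open symbols for the 1-mismatch site of Psat1 and grey for 50 bp to either side. All symbols lie in the grey area except the WT +Leu peak of Aldh1l2, 61.5 bp from its motif.

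Withdrawal of leucine was compared by the highest score within 5 kb. In WT cells all 6 bound enzymes scored higher in -Leu than in +Leu, as did 79.6% of the 157 genes with such a peak in both lists. The ratio of the -Leu to the +Leu score was 2.98 for Aldh1l2, 2.64 for Psat1, 2.48 for Mthfd1l, 2.47 for Phgdh, 2.12 for Shmt2 and 1.67 for Mthfd2. The median of the 6 was 2.47, beside 2.13 for all 157 genes, and the ratios of the enzymes lay within the range of all genes, 0.26 to 18.9. By percentile within its own list the direction was the other one. The percentile was lower in WT -Leu for all 6 enzymes, from 97.71 to 95.48 for Phgdh, 95.63 to 93.22 for Mthfd1l and 95.63 to 94.48 for Aldh1l2, and by less than 1 for Mthfd2 (99.88 to 99.64), Shmt2 (99.86 to 99.72) and Psat1 (99.75 to 99.62). Of the 157 genes, 47.1% had a higher percentile in WT -Leu. Whether binding or the depth of the libraries differed cannot be told apart from these values.

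In GCN2 KO cells neither Psat1 nor Mthfd2, the 2 enzymes with a peak in both lists, scored higher in -Leu than in +Leu, and 28.6% of the 49 genes with such a peak in both GCN2 KO lists did. The ratio of the -Leu to the +Leu score was 0.41 for Psat1 and 0.995 for Mthfd2, beside a median of 0.857 over the 49 genes. By percentile Mthfd2 was higher in GCN2 KO -Leu (99.78 to 99.89) and Psat1 lower (99.66 to 98.8), and 38.8% of the 49 genes were higher.

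Between the genotypes, the WT scores were the higher ones for every enzyme that could be compared. With leucine the WT score was 4.42 times the GCN2 KO score for Shmt2, 3.04 times for Mthfd2 and 2.47 times for Psat1. Of the 80 genes with a peak within 5 kb in both +Leu lists, 71.2% scored higher in WT, with a median ratio of 1.32. Without leucine the ratio was 15.9 for Psat1 and 5.09 for Mthfd2, and 65.5% of 58 genes scored higher in WT, with a median ratio of 1.53. Neither median was matched for score, and the enzymes compared were among the highest peaks of their lists. The highest score of any peak was 1499 (+Leu) and 2628 (-Leu) in WT, against 391 and 353 in GCN2 KO. Whether the enzymes differ from genes of like score was not tested. By percentile the WT peak was the higher one with leucine for Shmt2 (99.86 against 99.36), Mthfd2 (99.88 against 99.78) and Psat1 (99.75 against 99.66). These lists held 4850 and 3566 peaks, and Psat1 ranked 13 in both, so its percentiles differed through list length alone. The ranks were 7 against 9 for Mthfd2 and 8 against 24 for Shmt2. Without leucine the WT percentile was higher for Psat1 (99.62 against 98.8). Mthfd2 without leucine was higher in GCN2 KO (99.89, rank 4) than in WT (99.64, rank 24). Each list enters both a leucine and a genotype comparison, so these ratios are not independent of each other.

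The enzymes without a GCN2 KO peak within 5 kb were those with the lower WT scores. Psat1, Shmt2 and Mthfd2 belonged to the 44 genes with a WT +Leu score of 100 or more within 5 kb. All 3 had a GCN2 KO +Leu peak within 5 kb and 2 had a GCN2 KO -Leu peak, against 68.2% and 43.2% of the 44 genes. Phgdh, Mthfd1l and Aldh1l2 belonged to the 63 genes with a WT +Leu score of 50 to 99. None of these 3 had a GCN2 KO peak within 5 kb, nor did most of the 63, with 7.94% in the +Leu and 0% in the -Leu list. These score ranges were chosen after the values had been seen.

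Member peaks farther than 5 kb from the TSS numbered 3, 3, 1 and 1. Their scores ran from 17 to 46, on either side of the list medians of 29 and 30. By percentile they ran from 8.237 (Mthfd1l, WT -Leu) to 91.65 (Mthfd2, WT +Leu). None of the 8 had a peak of another list 300 bp or less away, and few did among all peaks beyond 5 kb, 5.99%, 4.89%, 4.01% and 5.45% in the 4 lists. None held TGATGNAA within 50 bp of the center, which 3.15%, 10%, 1.59% and 1.79% of all peaks beyond 5 kb did, so neither count sets these peaks apart. Both distal Mthfd2 peaks, at 25949 bp in WT +Leu (score 46) and 15405 bp in GCN2 KO -Leu (score 20), lay in introns of the bicarbonate transporter gene Slc4a5, the first in a SINE repeat. For Mthfd1l, a WT -Leu peak at -30475 bp (score 17) lay in intron 10 of Plekhg1, and a GCN2 KO +Leu peak at 96416 bp (score 30) lay in an LTR repeat in intron 20 of Mthfd1l. The remaining 4 belonged to Phgdh, in its intron 8 (20598 bp, score 24, WT +Leu), and to Psat1, at -9297 bp with leucine (score 24 in WT) and, without it, at 19785 bp (score 39) and 136002 bp (score 19).

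Genes around the pathway were counted from a list of 32, made up of the glycine cleavage system, other folate enzymes, purine steps that use formyl-folate, mitochondrial carriers of serine and folate, enzymes that use or break down serine, and enzymes of methyl group use. Near the TSS, by the same limit of 5 kb, a peak was found for 4, 1, 1 and 0 of the 32, to be read against the shares of all protein-coding genes given above. None of the 4 glycine cleavage genes, 2 purine genes or 3 carrier genes had one. In WT +Leu the 4 were Cbs and Gnmt, each with a score of 37, Sdsl with 30 and Fpgs with 19. Cbs joins serine to homocysteine, Gnmt methylates glycine, and Fpgs adds glutamate to folates. Gnmt also had a GCN2 KO +Leu peak with a score of 31, at another site. Cth, which cleaves cystathionine to cysteine, had the highest score of the list, 48 in WT -Leu at 1416 bp in intron 1, and was the only one of the 5 genes with TGATGNAA within 50 bp of the center. Each of these scores was below the lowest score of the 6 bound enzymes at their shared sites in the WT lists, 58.

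The genes most like each enzyme were those with the smallest Euclidean distance over the 4 lists of the log2 of the highest score within 5 kb, among genes with a peak in the same lists. Mthfd2 was closest to Atf5, a transcription factor gene (808, 1569, 228 and 205, distance 0.678), and then to Yars, a tRNA synthetase gene (432, 1098, 115 and 120, distance 1.3), among 16 other genes with a peak in all 4 lists. Psat1 was closest to Gm5627 (319, 1238, 143 and 39, distance 0.874) and to Aars, another synthetase gene (404, 893, 93 and 54, distance 0.875). For Shmt2, with 29 other genes found in both WT lists and in GCN2 KO +Leu alone, these were Pck2, the mitochondrial phosphoenolpyruvate carboxykinase (398, 385 and 110, distance 1.6), and the histone demethylase gene Kdm6b (187, 1791 and 128, distance 1.65). Among 101 genes found in both WT lists and in no GCN2 KO list, Phgdh was closest to the hormone gene Fgf21 (94 and 233, distance 0.187) and to Gm15850 (105 and 208, distance 0.289). Mthfd1l was closest to Runx3 (56 and 122, distance 0.244) and then to Aldh1l2 (distance 0.265), and Aldh1l2 to Mthfd1l and then to Eprs (46 and 170, distance 0.335).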

How the data were processed

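ATF4 ChIP-seq was analysed from the 4 annotated peak lists deposited by the authors. According to the methods and the submitters' processing notes, 50 bp single reads were aligned to mm10 with BWA 0.7.12, MACS2 2.1.0 called peaks over input (false discovery rate 0.05), and summits ±150 bp were annotated with HOMER 4.7. The authors deposited a score for each peak, its distance from the closest TSS, and as a fraction the CpG and GC content of its window, which is printed here as percent.

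The members and lists were chosen with earlier results of these data known. Peaks were joined by gene name, ranked by score within a list, and called common when centers were 300 bp or less apart. Shares have 95% Wilson intervals. Reference sequence was used because the listed GC content equalled that of GRCm38 for every peak on assembled chromosomes. The percentile is the share of a list's peaks that score no higher. Genes named in the text are the 10 enzymes, genes of the wider list with a peak within 5 kb, the 2 genes most like each enzyme, and genes that host or are nearest to a described peak. Alternatives were other TSS distances, a score minimum of 30, lists of equal length, other common-site limits, other motif windows, the nearest peak and percentile ranks. Common sites and motif matches were also tested on simulated data. The tools were Python 3.11.15, pysam 0.24.0, scipy 1.17.1, pandas 2.3.3, matplotlib 3.10.9 and numpy 2.4.6. The depth of the libraries is unknown, the intervals cover counting error only, and with 1 library per condition no p-value is given. Of the named genes, those nearest to an enzyme without a peak were chosen after their values were seen.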

Additional observations from a re-analysis of the deposited data

Results flagged for a closer look

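For Psat1 and Mthfd2, the enzymes with a peak in all 4 lists, the score without leucine was above that with leucine in WT and below it in GCN2 KO. For Psat1 the ratio of the -Leu to the +Leu score was 2.64 in WT and 0.41 in GCN2 KO, from scores of 398 and 1050 against 161 and 66. For Mthfd2 it was 1.67 in WT and 0.995 in GCN2 KO, where the scores of 209 and 208 differed by 1. By percentile within the list these directions changed, except for Psat1 in GCN2 KO. Mthfd2 was lower without leucine in WT (99.88 to 99.64) and higher in GCN2 KO (99.78 to 99.89), and Psat1 was lower in both WT (99.75 to 99.62) and GCN2 KO (99.66 to 98.8). The difference between the genotypes was not tested, since each condition had 1 library, and the GCN2 KO -Leu list was the shortest of the 4, with 2672 peaks. Shmt2 could not be compared in this way, because it had no peak in GCN2 KO -Leu.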

How the results depend on the processing

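Of 47 alternative values computed for 14 results, 44 stayed within 1.5 times the value reported and kept its direction. These cover the number of enzymes with a peak near the TSS, the number of member peaks and the number of enzymes with a common site in both WT lists. The median ratio of the WT scores (2.47) fell below 1 when percentiles replaced scores, to 0.993. Its alternatives by nearest peak, 1 kb limit and common sites used the same peaks and gave 2.47 again. The equal-length cut left the GCN2 KO -Leu list unchanged, since that list was the shortest, with 2672 peaks. Such alternatives could not differ, so their agreement is no sign of stability. With TGATGCAA alone in place of TGATGNAA, the member peaks with the motif within 50 bp of the center numbered 1 instead of 2 in GCN2 KO +Leu and 0 instead of 1 in GCN2 KO -Leu, because Mthfd2 holds TGATGAAA. No paired analysis was possible because each condition had 1 library and the results come from no test. The lists hold no depth, so a missing peak says only that none was called at the depth of that library, and the precision of a score is unknown.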
